A study of Danio rerio with 9 samples.

Results

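The comparison of the oblong-sphere with the 50%-epiboly zebrafish embryo covers the hours in which RNA laid down by the mother is removed and gastrulation begins. Genes were included when their level was at least 1 RPKM (reads normalized to gene length and to mapped reads) in either of these libraries, which gave 13477 of the 29291 genes in the table. Of these, 8861 reached 1 RPKM in both libraries, 2777 at oblong-sphere alone and 1839 at 50%-epiboly alone. Poly(A) RNA was sequenced from whole embryos and larvae of the AB strain with no other treatment, and each of the 9 stages had 1 library made from a large pool of individuals. The stages compared here were oblong-sphere, at 3.6 to 4 hours post-fertilization (hpf), and 50%-epiboly, at 5.25 hpf. The 64-cell library at 2 hpf, taken before the main onset of zygotic transcription, and the later libraries from 15-somite (16.5 to 17.5 hpf) to the 1-week larva give the course before and after. With 1 library per stage there is no replicate check, no test was made between stages, and every difference describes these libraries alone.

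The egg is loaded with RNA by the mother, and the first cleavages run on it while the embryo's own genes are silent. The embryo then starts transcription, and maternal RNAs are removed by factors that shorten the poly(A) tail and degrade the message, first maternal and then also zygotic ones such as microRNAs. By 50%-epiboly the blastoderm has spread over the upper part of the yolk cell, an outer enveloping layer covers it, the yolk syncytial layer lies beneath, and the germ ring from which mesoderm and endoderm form is appearing. Since poly(A) RNA was measured, loss of a message and shortening of its tail cannot be told apart. Nor can new RNA be told from a longer tail on stored RNA where a level was higher. The name newly made, used below, thus stands for levels alone. In whole embryos, fewer cells of a type and less RNA per cell cannot be told apart either.

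Depth was high in both libraries. The mapped reads worked out from the RPKM steps were 189533079 at oblong-sphere and 192277130 at 50%-epiboly, so that 1 RPKM at the median gene length of 2096 bases stood for 397 and 403 reads. The exact 95% Poisson interval of a level of 1 RPKM had a lower bound of 0.904 RPKM at oblong-sphere, and 3 reads, taken as the floor, were 0.00755 and 0.00744 RPKM. Intervals and floors cover counting error only, not the spread between batches of embryos. The difference used below is log2(RPKM + 1) at 50%-epiboly minus that at oblong-sphere, which understates the difference of low genes. Fold ratios are of the RPKM themselves, with exact 95% counting intervals for genes whose reads could be recovered (11599 genes, 86.1%).

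More genes were lower than higher at 50%-epiboly. Of the 13477 genes, 2928 (21.7%) were at least 4-fold lower, a difference of -2 or less, and are called cleared here. At least 4-fold higher were 1365 genes (10.1%). Another 3258 genes were 2- to 4-fold lower and 1504 were 2- to 4-fold higher, so that 45.9% of all genes were lower by 2-fold or more and 21.3% higher by as much. The remaining 4422 genes (32.8%) stayed within 2-fold and are called kept. The 4-fold higher genes were split into 676 raised genes, which already had 1 RPKM at 64-cell or oblong-sphere, and 689 newly made genes, which were under 1 RPKM in both. The genes nearest the 4-fold thresholds had differences of 2.00 and 1.9996 on the higher side and -2.0002 and -1.9995 on the lower side, and the lowest included and highest left-out genes had 1.0002 and 0.9994 RPKM.

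RPKM are shares of a library, and the balance between the directions depends on the scaling. The median difference over all 13477 genes was -0.84, and differences of gene groups are best read against it. Of the genes past 4-fold, 31.8% were higher with RPKM as deposited. Median-of-ratios scaling over all 9 libraries, an alternative chosen after seeing the data, moved every gene up by 0.65 in log2 RPKM, gave 2033 higher and 1900 lower genes, and made 51.7% of those past 4-fold higher. Scaling between these 2 libraries alone moved genes by 0.08, and scaling without the 100 most abundant genes by 0.15. The sign of each list's and family's median given below held under all of these scalings except where stated, but counts of members shift with them.

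**Figure D1:**
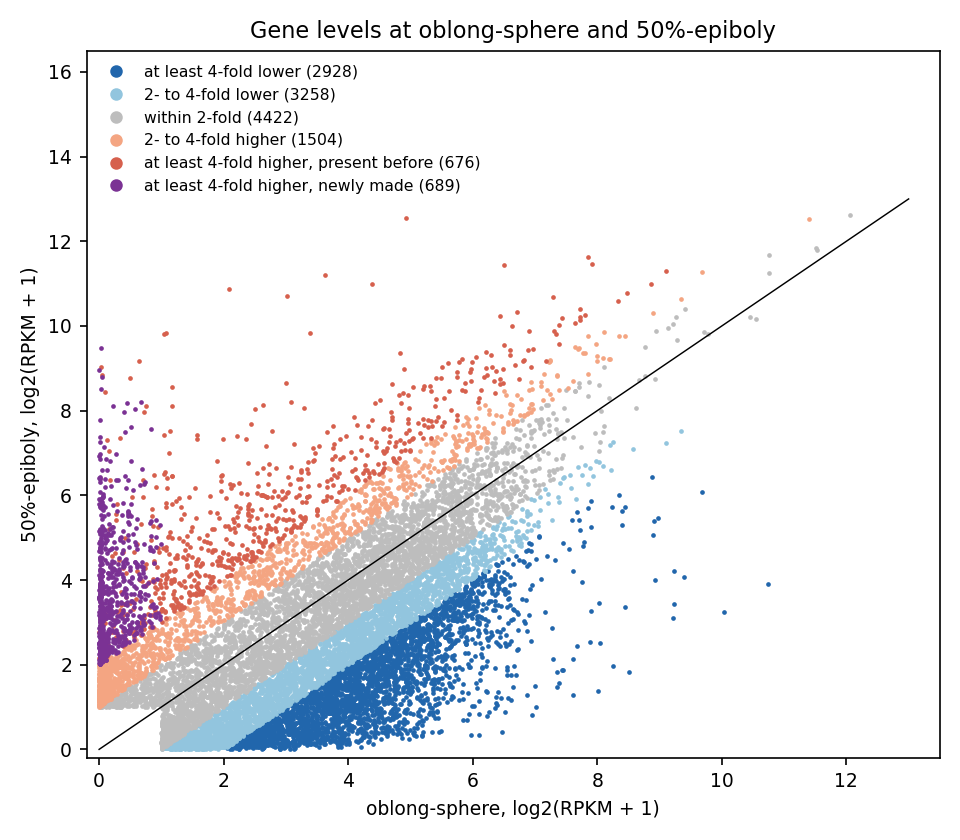
Level of each of the 13477 genes at oblong-sphere (x axis) and 50%-epiboly (y axis), both in log2(RPKM + 1), with 1 point per gene coloured by class and the line of equal level in black. The 2928 cleared genes lie in a broad field below the line, and the 689 newly made genes stand at the left edge, where the oblong-sphere level is near 0.

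The classes were made from their levels in these 2 libraries, so the direction of their shares is set by the rule and only the size of each share describes the libraries. Cleared genes took 29.6% of all RPKM in both the 64-cell and the oblong-sphere library, but 2.65% at 50%-epiboly. Raised genes took 4.17% at oblong-sphere and 32.9% at 50%-epiboly, and newly made genes 0.04% and 4.53%. Kept genes held 36.8% and 33.8%. The 676 raised genes thus took up far more of the 50%-epiboly library than the 689 newly made genes. Of the raised genes, 120 were under 1 RPKM at oblong-sphere and counted as raised through the 64-cell library alone, which also held RNAs of digestive tissue. In the 15-somite library the shares were 3.65% for cleared, 31.3% for raised and 3.58% for newly made genes.

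**Figure D2:**
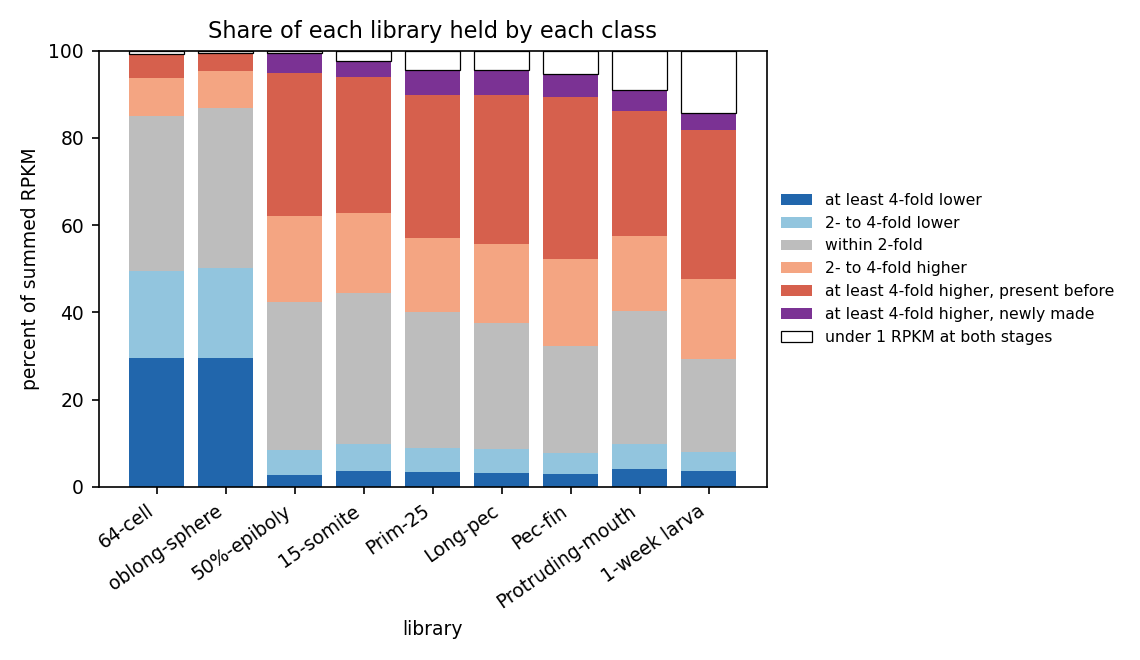
Percent of the summed RPKM held by the genes of each class (y axis) in each of the 9 libraries (x axis), stacked to 100%. The share of cleared genes is 29.6% in both of the first libraries and between 2.65% and 4.09% from 50%-epiboly on, where raised genes hold 32.9% at 50%-epiboly.

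Nearly all cleared RNAs were already present at 64-cell, as were most RNAs. Of the 2928 cleared genes, 2919 (99.7%) had at least 1 RPKM at 64-cell. So did 11307 of all 13477 genes and 3901 of the 4422 kept genes, and the rule for cleared genes itself asks for RNA at oblong-sphere. The median level of cleared genes was 17.2 RPKM at 64-cell, 18.6 RPKM at oblong-sphere and 1.55 RPKM at 50%-epiboly. The median was thus no lower at oblong-sphere than at 64-cell. At 50%-epiboly 1131 of the cleared genes were under 1 RPKM. At some later stage 2666 of the cleared genes had at least 1 RPKM, many of which had not dropped below it at 50%-epiboly, and 181 reached their oblong-sphere level or above. The other 262 stayed under 1 RPKM in every later library. Of the cleared genes, 9 were under 1 RPKM at 64-cell, and so had come up and gone down between 2 and 5.25 hpf. The share of genes cleared varied little with abundance above 5 RPKM. Among genes with 5 to 20 RPKM at 64-cell 31.8% were cleared, with 20 to 100 RPKM 32.0%, and with 100 RPKM or more 28.9%. It was 9.84% at 1 to 5 RPKM, where a 4-fold difference is harder to reach in log2(RPKM + 1).

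**Figure D3:**
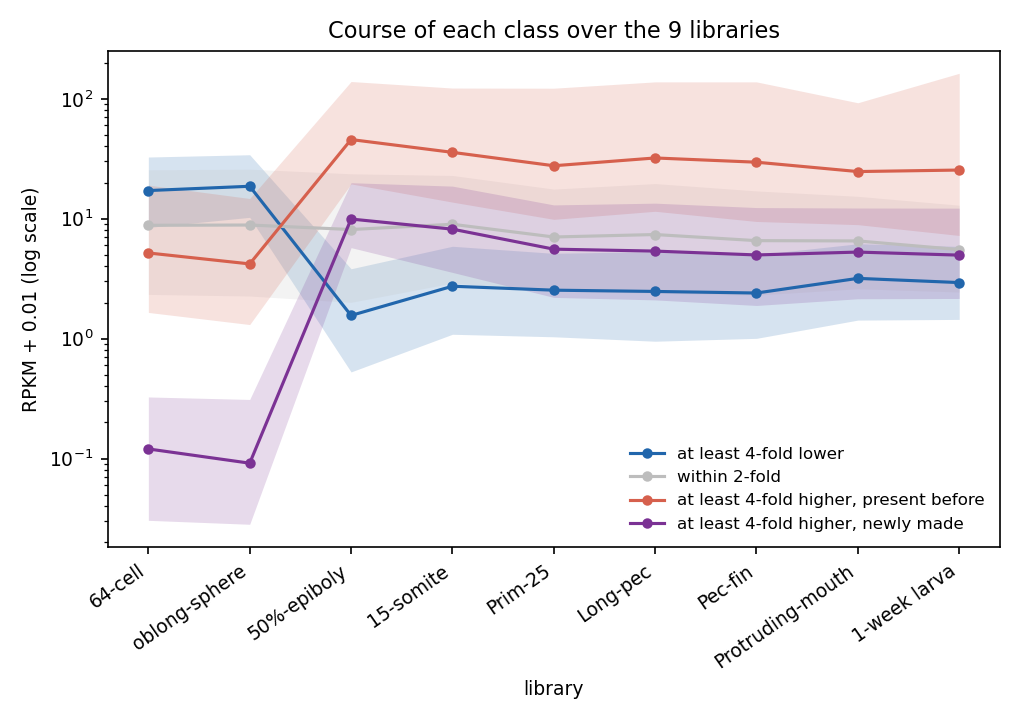
Median level (points and lines) and middle 50% of genes (shaded) of cleared, kept, raised and newly made genes, as RPKM + 0.01 on a log axis, over the 9 libraries in order of stage. Cleared genes run level at 17.2 and 18.6 RPKM and then have 1.55 RPKM, while newly made genes go from 0.08 to 9.92 RPKM between oblong-sphere and 50%-epiboly.

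The regulators of the oocyte were lower almost as a block. Of 23 measured members of the list, 20 were lower by 2-fold or more, 18 of them 4-fold, and 1 was higher, with a median difference of -5.18. Members under 1 RPKM at 50%-epiboly, such as MOS (56.2 and then 0.604 RPKM), passed the filter at oblong-sphere alone. They could not have been higher, and the same holds for such members of the lists and families below. The higher one passed at 50%-epiboly alone and could not have been lower. The largest differences were those of the claudin genes cldnd (1048 and then 8.43 RPKM) and cldng (365 and 2.57 RPKM), which encode tight junction proteins, followed by BTG4. bmp15, an oocyte growth factor of the TGF-beta family, had 48.8 RPKM at 64-cell, 87.2 at oblong-sphere and 0.334 at 50%-epiboly, a ratio of 261-fold (95% counting interval 218 to 315). Outside the list, larp6b, an RNA-binding protein of the La family, had 77.0, 129 and 0.986 RPKM. TENT5C, a poly(A) polymerase of the TENT5 family and also not on the list, had 103, 165 and 1.95 RPKM. The genes bmp15, larp6b and TENT5C all had a higher level at oblong-sphere than at 64-cell, as had BTG4, ccnp and patl2 of the list. The list's median went the other way, from 140 RPKM at 64-cell to 86.6 RPKM at oblong-sphere. Its member kpna7, for example, had 251 and then 83.6 RPKM in these libraries. patl2, an RNA-binding protein of the oocyte, had 67.6 RPKM and then 0.257 RPKM, 263-fold lower (217 to 321).

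The germ plasm and piRNA list, whose products mark and protect the germ line, had 17 of 18 members lower by 2-fold or more and a median of -3.35. Some of these, such as ASZ1 (41.0 and then 0.672 RPKM), passed the filter at oblong-sphere alone and could not have been higher. TDRD1, a Tudor protein of the piRNA pathway, had 62.7 and then 1.04 RPKM, and ca15b, a carbonic anhydrase gene of germ cells, 97.3 and then 2.36 RPKM. The exception was CELF1, an RNA-binding protein that is also active in somatic cells, with 38.6 and 51.9 RPKM. Across the Tudor family all 9 measured genes were lower by 2-fold or more, with tdrd6b at 26.4 and then 0.289 RPKM. Egg coat genes of the zona pellucida type split, with 8 of 13 lower by 2-fold or more and 5 kept. All the kept ones but zp3a.2 had 3.72 RPKM or less at oblong-sphere, after 12.4 RPKM or more at 64-cell. At such levels a 2-fold difference is harder to reach in log2(RPKM + 1). zp2.3, counted as kept, had 16.4 RPKM at 64-cell, 3.72 at oblong-sphere and 1.60 at 50%-epiboly. zp3c had 59.9 and then 1.52 RPKM, while zp3a.2, which had dropped from 160.2 to 17.2 RPKM before oblong-sphere, had 17.3 RPKM at 50%-epiboly. Near-identical copies within the zona pellucida genes can share reads.

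The RNAs for the machinery that clears maternal messages were themselves mostly lower with RPKM as deposited. Of 39 deadenylation and decay genes, 28 were lower by 2-fold or more and 3 higher, with a median of -1.48. Over all genes 45.9% were lower and 21.3% higher. With scaling over 9 libraries 18 of the 39 were lower and 3 higher. Their median was then -0.86, beside -0.26 over all genes. Several maternal forms had a relative with a smaller difference. BTG4, the adaptor that brings maternal mRNA to the CCR4-NOT deadenylase, had 257 and then 1.62 RPKM, whereas its relative BTG2 had 271 and 103 RPKM, and tob1b, of the related Tob family, 37.3 and 12.7 RPKM. Another relative, btg3, was itself cleared, with 114 and then 24.7 RPKM. cth1, a zinc finger protein that binds AU-rich elements, had 591 and then 7.59 RPKM, and ZFP36L2, of the same family, 31.2 and 8.15 RPKM. LSM14B had 172 and 2.69 RPKM against 39.1 and 13.1 RPKM for lsm14aa, and patl1 had 82.6 and 37.8 RPKM beside patl2. Both LSM14 and Pat1 proteins belong to mRNA-protein particles. DDX6, an RNA helicase of the same particles, had 44.7 and then 3.48 RPKM, 12.8-fold lower (12.03 to 13.7).

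Genes for proteins that bind the ends of the message differed by form. PABPC1L, the poly(A)-binding protein of the oocyte, had 98.9 RPKM at oblong-sphere and 1.76 RPKM at 50%-epiboly. pabpc1a, a general poly(A)-binding protein, had 255 and then 623 RPKM. Since pabpc1a was already the more abundant, the summed level of the measured poly(A)-binding protein genes went from 355.9 to 632.4 RPKM. At the cap, EIF4E1B, the oocyte form of the cap-binding protein, had 28.2 and then 13.4 RPKM, and EIF4E, a general form, had 2.78 and then 42.9 RPKM. Other cap-binding genes were lower too, eif4eb with 27.5 and 6.56 RPKM and EIF4E2 with 13.96 and 1.46 RPKM. CPEB4, which binds cytoplasmic polyadenylation elements, had 66.2 and 7.44 RPKM, and CPEB2 0.334 and 2.89 RPKM. Of the IGF2 mRNA-binding proteins, IGF2BP3 had 79.2 and 32.7 RPKM and igf2bp1 11.97 and 25.4 RPKM.

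The same pairing of a lower and a higher relative was seen in other families. Among nucleoplasmins, histone chaperones, npm2a had 14.4 and 1.25 RPKM, npm2b 46.5 and 36.7 RPKM and npm1a 167 and 760.2 RPKM, so that maternal npm2b was kept. Of 7 importin alpha genes, adaptors of nuclear import, kpna7 went furthest down, from 83.6 to 1.58 RPKM, and KPNA3 furthest up, from 0.792 to 44.3 RPKM. KPNA2 (49.8 and 75.8 RPKM) and KPNA4 (114 and 80.1 RPKM) were within 2-fold. The summed level of the 7 importin alphas was 277.4 RPKM at oblong-sphere and 235.5 RPKM at 50%-epiboly. In the SoxB1 group, HMG box transcription factors of pluripotent and neural cells, sox19b had 325 and then 63.8 RPKM, while sox19a, SOX3 and SOX2 were higher, SOX2 going from 0.0659 to 35.3 RPKM. The sum of the 4 was 369.5 and then 304.4 RPKM. The claudins cldne (2.71 to 111 RPKM) and cldnb (0.392 to 45.9 RPKM), found in epithelia of the embryo, were higher where cldnd and cldng were lower, but the sum of 5 claudins was 1415.8 and then 169.2 RPKM. slbp2, the stem-loop binding protein of the oocyte, had 86.6 and then 1.3 RPKM.

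**Figure D4:**
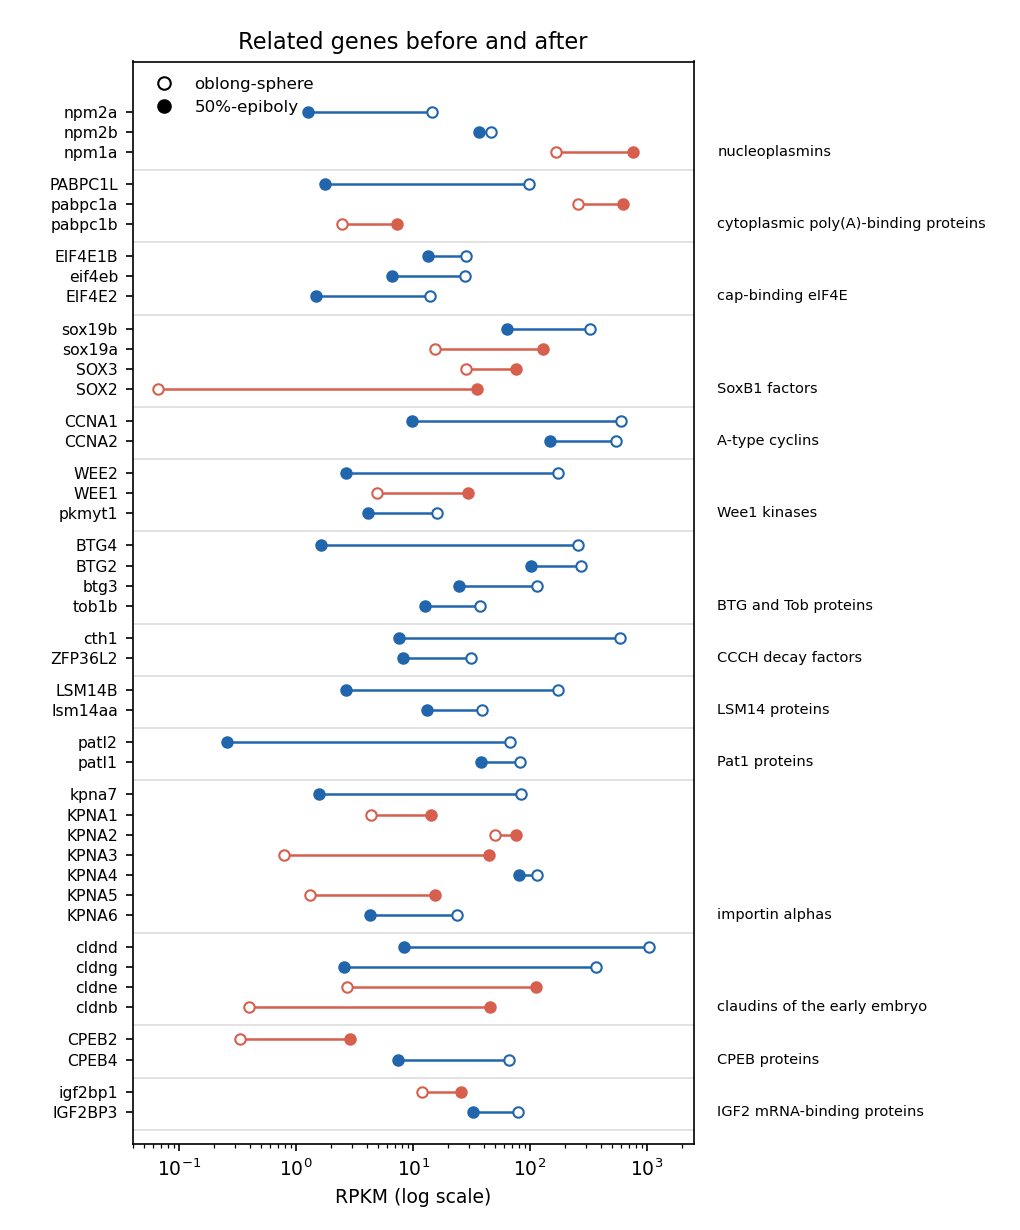
Level of related genes at oblong-sphere (open points) and 50%-epiboly (filled points) in RPKM on a log axis, 1 row per gene, grouped by family, with blue lines for lower and red lines for higher genes. The oocyte forms PABPC1L, WEE2, kpna7 and patl2 have the longest blue lines of their sets, and in some sets, such as the Pat1 proteins, no relative was higher.

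Cell cycle genes went both ways, as did all genes, of which 45.9% were lower by 2-fold or more and 21.3% higher. Of 29 mitotic genes, 16 were lower by 2-fold or more and 6 higher (median -1.25), and with scaling over 9 libraries 10 were lower and 8 higher (median -0.60). CCNA1, the germ line A-type cyclin, had 769, 600.01 and 9.72 RPKM in the first 3 libraries, whereas CCNA2, the somatic form, had 704, 547 and 149 RPKM. Both were high at oblong-sphere, and at 50%-epiboly CCNA2 was much the higher. Of the kinases that hold back CDK1, the oocyte form WEE2 had 173 and then 2.64 RPKM, the somatic form WEE1 had 4.92 and then 29.5 RPKM, and pkmyt1 had 16.1 and 4.09 RPKM. CDK1 itself had 22.2 and then 92.5 RPKM, while its partner CCNB1 had 652 and 184 RPKM. Genes of the G1 phase, p53 pathway and growth arrest went the other way, with 10 of 18 higher by 2-fold or more, 2 lower and a median of 1.21. Of the 18, 4 passed the filter at 50%-epiboly alone, sesn3 among them, and could not have been lower. sesn3, a stress-induced sestrin, had 0.133 and then 111 RPKM, and cdkn1ca, an inhibitor of cyclin-dependent kinases, 4.81 and then 66.0 RPKM.

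DNA replication genes had a median of -0.84, the same as all genes, with 16 of 34 lower by 2-fold or more and 3 higher. With scaling over 9 libraries 8 were lower and 7 higher, with a median of -0.20. PCNA, the sliding clamp, had 271 and then 609 RPKM, ORC1 of the origin recognition complex 84.1 and 12.9 RPKM, and TYMS, thymidylate synthase, 83.6 and 13.8 RPKM. Within the helicase family, mcm3l, a maternal form of MCM3, had 97.4 and then 1.25 RPKM and MCM5 77.3 and 108 RPKM. Condensin and cohesin genes were mostly kept (13 of 16), as were nuclear pore genes (12 of 17), beside 32.8% over all genes. The medians of these 2 families, -0.49 and -0.49, turned to 0.01 and 0.14 with scaling over 9 libraries.

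Several large families of signalling and trafficking genes had more lower than higher members. The same was true over all genes, of which 45.9% were lower by 2-fold or more and 21.3% higher (median -0.84). Such a balance alone thus does not set a family apart. Of 206 ubiquitin ligase and adaptor genes, 121 were lower by 2-fold or more and 16 higher, with a median of -1.31. Of these genes, 51 were cleared, a share near that over all genes. FBXO33, an F-box protein, had 92.96 and then 2.37 RPKM, and FBXL2 30.8 and 0.374 RPKM. Kinesins, the microtubule motors, had 13 of 22 lower (median -1.45), and Rab GTPases of vesicle traffic 27 of 51 (median -1.15). RAB35 had 51.1, 100.3 and 13.9 RPKM, and was thus near its peak at oblong-sphere. The other direction had fewer members, such as rab25a, an epithelial Rab, with 0.158 and then 21.01 RPKM. BTB zinc finger genes had 19 of 31 lower (median -1.44).

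Regulators of the first zygotic transcription went both ways. Of 8 genome activation factors, 4 were lower by 2-fold or more, 1 higher and 3 kept. Over all genes 45.9% were lower and 21.3% higher, so this balance does not set the list apart. nanog, the lowest of the list by difference, had 674, 600 and 17.5 RPKM in the first 3 libraries. SMAD2, a transducer of Nodal signals, had 94.2 and then 6.89 RPKM, and mych, a Myc family factor, was higher, with 7.5, 52.2 and 141 RPKM in the first 3 libraries. EOMES, a T-box factor that is maternal in the zebrafish, had 92.6 and then 2.68 RPKM. gdf3, the maternal Nodal partner, had 347 and then 9.35 RPKM, 37.05-fold lower (35.5 to 38.7). sybu, needed to place the dorsal determinant, had 13.6 and then 0.192 RPKM. gdf3 and sybu had the largest negative differences of 15 maternal axis genes. Of these 15, 7 were lower by 2-fold or more, 3 higher and 5 kept (median -0.92), a balance near that over all genes. Of the 15, 1 passed the filter at 50%-epiboly alone. CTNNB1, among the higher ones, had 122 and then 526 RPKM. FZD5, a Wnt receptor, had 36.6 and then 1.5 RPKM, while FZD2 went from 0.13 to 16.02 RPKM, and 7 of 10 Frizzled genes were higher by 2-fold or more with 2 lower, 3 of the 10 having passed the filter at 50%-epiboly alone.

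Some zygotic RNAs were already on their way out. Of 22 early zygotic regulators, 16 were higher by 2-fold or more, 3 lower and 3 kept (median 1.95). Of the list, 5 passed the filter of 1 RPKM through the 50%-epiboly library alone. Such genes could not have been lower, so that counts and medians of lists that hold many of them describe and support nothing. The lower ones were mxtx2, dharma and ndr1, of which the last 2 were named after their values were seen. mxtx2, a homeobox factor of the yolk syncytial layer, was listed at 0 at 64-cell and had 12.4 RPKM at oblong-sphere, 0.803 at 50%-epiboly and 0.0306 at 15-somite. dharma, a homeobox factor of the dorsal side, had 0.0105, 4.19 and 0.0878 RPKM in the first 3 libraries. ndr1, a Nodal ligand, had 1.25, 4.57 and 0.621 RPKM, and so was above 1 RPKM at 64-cell already. klf17, a zinc finger factor, was kept, with 0.893, 73.3 and 64.03 RPKM. nnr, the highest of the list, went from 36.1 to 199.8 RPKM and was at 0.383 RPKM by 15-somite, and so was a brief RNA too.

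The newly made and raised RNAs included the genes of the outer epithelium and the yolk syncytial layer. Of 22 enveloping layer and epidermis genes, 19 were higher by 2-fold or more and 1 lower (median 3.91), and of 18 genes of the keratin group 15 were higher and 1 lower (median 4.70). Of these, 10 of the enveloping layer genes and 13 of the keratin group passed the filter at 50%-epiboly alone. The lower one of the keratin group, KRTCAP2, is not a keratin and was taken up by its name. krt8 had 1.11 and then 917 RPKM, krt18a.1 7.11 and 1668 RPKM, and krt99 and krt92 were newly made at 363 and 220.1 RPKM. ANXA1, a calcium-dependent membrane-binding protein, had 2.97, 0.556, 573 and 76.8 RPKM from 64-cell to 15-somite, a peak at 50%-epiboly. epcam, an adhesion protein of epithelia, was the lower member, with 476 RPKM at 64-cell, 253 at oblong-sphere and 112 at 50%-epiboly. Of 10 yolk syncytial layer genes 9 were higher (median 5.45), 8 of the 10 having passed at 50%-epiboly alone. Apolipoprotein genes, whose products carry lipid, led them. In the first 3 libraries apoc1 had 11.8, 0.404 and 433 RPKM, and apoeb 20.9, 11.4 and 2375 RPKM. Both were thus higher at 64-cell than at oblong-sphere, and the source of the 64-cell RNA was not tested. mxtx2 was the exception.

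Neighbouring genes shared a direction in a few runs of 5 or more. Over 8783 genes placed by the order of RefSeq annotation (an assembly of another build, used for order alone), 9.96% were in the 4-fold higher group and 21.3% were cleared. There were 3 runs of lower genes, of 5, 5 and 6 genes, and 2 runs of higher genes. Whether such runs were more than these shares alone would give was not tested. A run of 7 higher genes in a row held apoa4b.1, apoa4b.2, apoeb, apoc1, apoa2, apoc2 and RPS19, and another run of 7 held the keratin and keratin-like genes krt1-19e, krt92, cyt1l, cyt1, krt17 and krt91 with si:dkeyp-113d7.1. Related copies within such clusters can share reads.

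Genes of the germ layers and the axis were mostly higher. Of 24 mesoderm genes, 19 were higher by 2-fold or more and 2 lower (median 2.95), of 5 endoderm genes all were higher (4.75), and of 12 organizer genes 11 were higher and 0 lower (3.75). Of these, 13 mesoderm, 4 endoderm and 7 organizer genes passed the filter at 50%-epiboly alone. With wider matching of names, chosen after seeing the data, the endoderm list had 8 members, 5 higher and 2 lower (median 3.91). tbx16l, a T-box factor, had 0.111, 38.8 and 10.5 RPKM from oblong-sphere to 15-somite. apela, a secreted peptide ligand of the apelin receptor, had 11.7 and then 179.6 RPKM. foxa3, a forkhead factor of endoderm and axial tissue, had 1.1 and then 55.4 RPKM, and FOXA2, counted in both the endoderm and organizer lists, 0.155 and then 36.99 RPKM. DLD, counted among the 2 lower mesoderm genes, had 23.2, 32.8 and 15.1 RPKM in the first 3 libraries. It was matched with case ignored and may be another gene than the Notch ligand of that name. The Notch ligand dlc was newly made at 25.5 RPKM. her1, a Hes family gene of the segmentation clock, stood at 0.0988 and then 33.7 RPKM, hours before the first somite. In its family 10 of 14 were higher and 2 lower, and 8 passed at 50%-epiboly alone.

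Signals and early fate factors of the ventral and neural sides were mostly higher at the same stage. Of 13 genes of the ventral BMP pathway, 11 were higher by 2-fold or more and 1 lower (median 2.70). The ligand genes bmp7a (1.16 to 31.4 RPKM) and BMP4 (0.00499 to 13.3 RPKM) were higher, as were the BMP targets ID1 (41.3 to 273 RPKM) and ID3 (5.38 to 142 RPKM). The transducer SMAD5, which is maternal, was lower (147 to 64.6 RPKM), and the receptor BMPR1A was kept (36.97 and 31.2 RPKM). cdx4, a homeobox factor of the posterior body, was newly made and reached 196 RPKM. Of 19 neural plate genes, 14 were higher and 3 lower (median 2.98). At 50%-epiboly alone 5 of the BMP genes and 9 of the neural genes passed the filter. hoxb1b, a Hox gene of the hindbrain, had 0.421 and then 54.1 RPKM, and GMNN, geminin, a replication inhibitor with a neural role, was the most abundant of the list in the earlier libraries and lower at 50%-epiboly, with 483, 244 and 86.3 RPKM. All 9 Hox genes that passed the filter were higher by 2-fold or more, and all of them passed through the 50%-epiboly library alone, so that they could not have been lower.

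Nodal and FGF signalling genes went both ways, with 11 of 20 genes higher by 2-fold or more and 7 lower (median 1.62). Of the 20, 3 passed the filter at 50%-epiboly alone. With wider matching of names the list had 24 members, of which 11 were higher and 9 lower, and its median was 0.31. The activin and Nodal receptor ACVR2B was lower, with 42.1 and 6.03 RPKM, as were both genes named ACVR1B. Values of these receptors were looked up after those of the list were seen. fgfr4, an FGF receptor, had 4.77 and then 90.8 RPKM, and ETV4, an ETS factor induced by FGF, 5.49 and then 61.2 RPKM. Among movement and adhesion genes, 12 of 22 were higher and 1 lower (median 1.55), 8 of the 22 having passed at 50%-epiboly alone. cxcl12b, a chemokine that guides migrating cells, had 0.0649 and then 32.3 RPKM, and CDH2, N-cadherin, 3.86 and then 65.5 RPKM. wnt11f2, a Wnt ligand of convergence and extension, had 6.48 and then 24.7 RPKM. The GTPase rac1a (195 and 164 RPKM), the fibronectin receptor subunit ITGA5 (19.3 and 19.4 RPKM) and the laminin chain lamc1 (34.6 and 44.1 RPKM) were kept. STAT3, a transcription factor, had 19.97 and 4.96 RPKM.

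Genes of ribosomes, the proteasome and splicing had more higher than lower members. Of 69 genes for cytosolic ribosomal proteins, 68 were higher by 2-fold or more, 51 of them 4-fold, and 0 lower (median 2.51). With a pseudocount of 0.1 in place of 1 the count of lower ones was 1. RPS29 had 387, 89.2 and 2787 RPKM, so it had gone down before oblong-sphere. Ribosome biogenesis genes, which act in the nucleolus, had 24 of 45 higher and 2 lower (median 1.09). EMG1, a methyltransferase of ribosomal RNA, had 1.07 and then 89.1 RPKM, 83.6-fold higher (73.2 to 95.96), and BOP1, of the large subunit pathway, was lower (70.7 and 27.6 RPKM). Mitochondrial ribosomal proteins stayed apart from the cytosolic ones, with 38 of 58 kept (32.8% over all genes) and a median of 0.13. Proteasome subunits had 22 of 43 higher and 4 lower, with PSMB6 at 5.22 and then 99.6 RPKM. Spliceosome and SR genes had 19 of 46 higher and 1 lower, among them srsf5a at 44.1 and then 435 RPKM.

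Chromatin and energy genes were mixed. Of 31 chromatin regulators, 7 were higher by 2-fold or more and 11 lower, with a median of -0.58 that turned to 0.06 with scaling over 9 libraries. Over all genes 21.3% were higher by 2-fold or more, 45.9% lower and 32.8% kept. hmga1a, an architectural chromatin protein, had 229 and then 3143 RPKM, and brd2b, a bromodomain protein, 42.8 and then 1.12 RPKM. h3f3a, the H3.3 variant, went from 210.1 to 1185 RPKM. Cytoplasmic tRNA synthetases were mostly kept (12 of 16), and their median of -0.34 turned to 0.29 under the same scaling. Of 7 glycolysis genes past the filter, 5 were lower and 2 higher, with pgam1b, a phosphoglycerate mutase, at 20.3 and then 1.57 RPKM and GAPDH at 190.2 and 70.8 RPKM. Complex I subunits had 15 of 38 higher and 3 lower (median 0.72).

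The kept RNAs were led by genes of the mitochondrial genome. The 8 most abundant of the genes within 0.5 of no difference, with a symbol borne by 1 gene, were mitochondrially encoded, such as MT-CO3 (2930.5 and 3662 RPKM) and MT-ND4 (872 and 896 RPKM), subunits of the respiratory chain. The next were alyref, an mRNA export adaptor, with 449.97, 435 and 453 RPKM in the first 3 libraries, and CTSB, a lysosomal protease, with 445, 405 and 419 RPKM. Over the whole class the median level was 8.80 RPKM at 64-cell, 8.85 at oblong-sphere and 8.11 at 50%-epiboly. A steady level does not show whether maternal RNA stayed or zygotic RNA took its place.

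For 344 of the 689 newly made genes (49.9%) 50%-epiboly held the highest level of all 9 libraries, and the same was true of 303 raised genes (44.8%). The newly made class had 343 genes with 10 RPKM or more at 50%-epiboly and 23 with 100 RPKM or more, and 18 of its genes were under 1 RPKM in every later library. At oblong-sphere 16 were listed at 0. Highest of the class was ctsll, a cathepsin L-like protease, with 0.0185, 713, 135 and 0.769 RPKM at oblong-sphere, 50%-epiboly, 15-somite and 1 week. alcamb, a cell adhesion protein, had 0.357 and then 288 RPKM, and the amino acid transporter SLC7A8 0.335 and then 179.8 RPKM. SLC3A2, the heavy chain that partners such transporters, was raised from 0.687 to 274 RPKM and had 7.89 RPKM at 15-somite. HSPB1, a small heat shock protein, was raised as well, to 5998 RPKM. rnf183, a RING finger gene, and CYP27C1, a cytochrome P450, were newly made at 21.1 and 44.3 RPKM.

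Part of the higher genes were on lists for tissues that a gastrula lacks. Of 16 digestive and gonad genes, 14 had at least 1 RPKM at 50%-epiboly and 0 at oblong-sphere, and their summed level was 104.2 RPKM at 64-cell, 1.12 at oblong-sphere and 85.0 at 50%-epiboly. The trypsin gene prss1 had 20.9, 0.273 and 12.1 RPKM in the first 3 libraries and was highest in the 1-week larva (4939 RPKM). The fatty acid binding protein gene FABP2 had another course, with 1.11, 0.471 and 24.2 RPKM in the first 3 libraries. FABP2 was highest at 15-somite (315 RPKM), above the 1-week larva (225 RPKM). Of 21 genes of later differentiated cells, 8 had at least 1 RPKM at 50%-epiboly and 0 at oblong-sphere, and their sum went from 3.01 to 82.1 RPKM. The globin genes hbae3 (31.1 RPKM) and hbbe3 (25.2 RPKM) led them. The 7 yolk precursor genes were all under 1 RPKM in both libraries. The part that RNA of other stages played in the higher genes was not tested. Leaving out genes that stood at under 5% of their later maximum at 50%-epiboly gave 1316 higher and 668 newly made genes, and under 10% gave 1282 and 653.

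**Figure D5:**
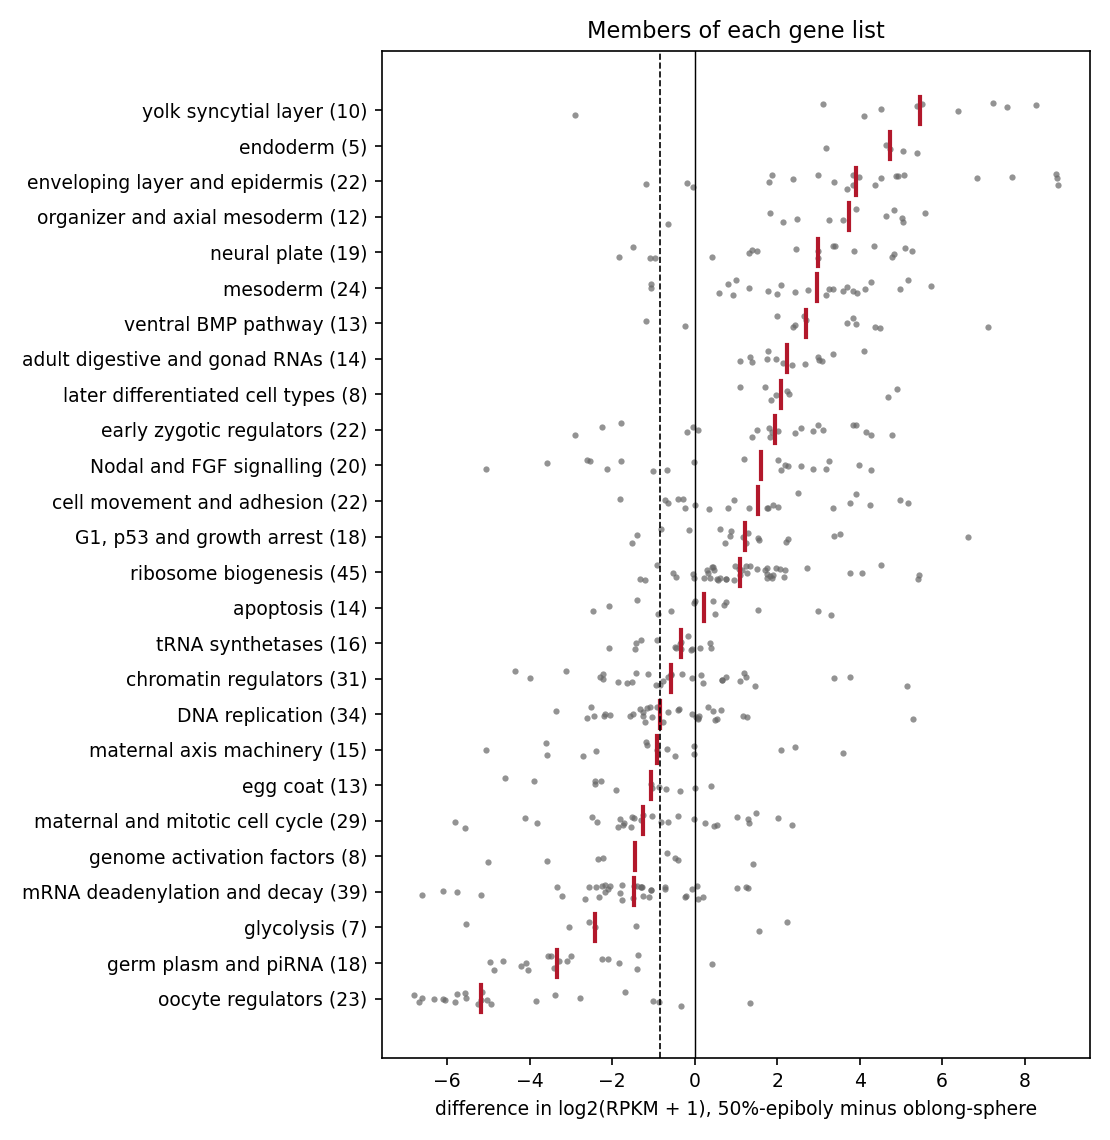
Difference in log2(RPKM + 1), 50%-epiboly minus oblong-sphere, of each member (grey points, spread vertically for sight) of 26 gene lists, with the number of measured members in brackets, the list's median in red, zero as a solid line and the median of all 13477 genes (-0.84) as a dashed line. Lists run from oocyte regulators (-5.18) to yolk syncytial layer (5.45), and in most lists the members spread widely about the median.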

How the data were processed

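Poly(A) RNA of 9 stages was sequenced on SOLiD fragment libraries, 1 per stage, per the labels' protocols. The authors deposited 1 RPKM value per gene and library on the Zv9 build, per the submitters' processing notes. No aligner, annotation release or filter is given in the sources used here. An ID table supplied symbols for 19580 of 29291 IDs, and upper and lower case were treated alike.

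Differences are in log2(RPKM + 1) between the 2 libraries over genes with 1 RPKM in either, and lists are described by counts at 2-fold beside those over all genes. The members, the 27 lists, 52 families and 18 sets of related genes were chosen with earlier results of these data known. Genes were named by rule. These were the 20 largest differences each way, the 10 most abundant within 0.5 log2, the 10 highest newly made genes, and per list or family the 2 largest each way and the highest. Each needed a symbol borne by 1 ID and 10 RPKM, and all members of sets of related genes were added. Yolk precursors had no member past the filter.

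Mapped reads and gene lengths were recovered from the steps between low RPKM values, with a relative tolerance of 1e-09 and lengths up to 10000 bases, without the Pec-fin column. The recovery was tested on simulated data. The first 4 of 5 forms of it failed that test, by missing totals or returning a fraction or multiple of them, and were changed after the totals of the real libraries had been seen. The form used passed on all 3 simulated tables. Of the earlier forms, 1 gave multiples for the real libraries, and the others gave the totals used here. Alternatives were a pseudocount of 0.1, filters of 0.5 RPKM and none, other scalings, no mitochondrially encoded genes, and other limits for absence. Promoter motifs and protein identities were not analysed here, and no sequence was used. Python 3.11.15, numpy 2.4.6, pandas 2.3.3, scipy 1.17.1 and matplotlib 3.10.9 were used.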

Additional observations from a re-analysis of the deposited data

Results flagged for a closer look

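The 64-cell library held RNAs of tissues that a cleavage embryo lacks. It does not enter the difference between the stages compared, but it does enter the split into raised and newly made genes. The 16 digestive and gonad genes summed to 104.2 RPKM there, while oblong-sphere held 1.12 RPKM and 50%-epiboly 85.0 RPKM, and 14 of the 16 had at least 1 RPKM. The 7 yolk precursor genes summed to 32.6 RPKM at 64-cell, 0.0806 RPKM at oblong-sphere and 0.217 RPKM at 50%-epiboly. Both sums were far above the level of 3 reads. The median of the 16 digestive and gonad genes was 4.35 RPKM at 64-cell, 0.0182 at oblong-sphere and 3.41 at 50%-epiboly. Later it was 7.79 RPKM at 15-somite, 1.75 at Prim-25, 6.29 at Long-pec and 0.137 at Pec-fin. The sum was 459.0 RPKM at 15-somite, of which FABP2 held 315 RPKM. High levels were thus not particular to 64-cell and 50%-epiboly. Whether the libraries that hold digestive RNAs share a source was not tested.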

How the results depend on the processing

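No paired analysis was possible because each stage has 1 library. With a pseudocount of 0.1 the counts were 2231 genes at least 4-fold higher, 4518 lower and 1373 newly made, against 1365, 2928 and 689, since low genes then pass the threshold more easily. Without a filter 20236 genes were within 2-fold, against 4422, because genes near 0 in both libraries then count as kept. Families with a median of at least 2-fold then numbered 8, against 24, and the glycolysis list changed the sign of its median while 2 of its members were higher and 5 lower as before. Scaling over 9 libraries gave 1900 lower genes, and scaling between the 2 libraries 1429 higher and 2760 lower. Requiring under 0.5 RPKM for absence gave 531 newly made genes, and oblong-sphere alone 809. Wider matching of list members, chosen after seeing the data, took the Nodal and FGF median from 1.62 to 0.31. The cause of these changes was otherwise not tested. With 1 library per stage and pooled embryos, depth is not the limit for genes above 1 RPKM, and the spread between batches of embryos is unknown. Promoter motifs and protein identities were not analysed here.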
